A study of Mus musculus with 10 samples.

Results

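AK196148, AK015763, DV650143, AK145170 and AA797690 are 5 transcripts without a gene name whose probes were brighter in mouse white fat than in brown fat after saline. They were found by matching each accession to the start of the probe names, which gave 1 probe and 1 spot per transcript, 5 of the 59709 probes on the arrays. The choice rests on measured values: of 774 tested probes named by a transcript accession, brown fat fell below white fat in 24 calls, and these 5 lay furthest down. The last of them, AA797690, stood at a log2 difference of -3.32, and the next probe down, FJ387503, at -2.62. Over all 43542 tested probes 4.86% were called in that direction, a share from which nothing can be read about the 5, since the contrast chose them.

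RNA came from wild-type mice on chow, as brown and white fat after 7 daily intraperitoneal saline injections and as white fat after 7 daily injections of CL316,243, called CL here, at 1 mg/kg. CL is an agonist of the β3-adrenergic receptor. Each of these 3 groups has 2 arrays, which the labels call biological replicates. The labels do not give the white depot, the animals' age or strain, or whether a replicate is 1 mouse. Wild-type brown adipocytes in culture were measured at days 0, 3, 5 and 7 of differentiation, with 1 array per day, and their origin is not stated either.

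White adipocytes store triglyceride in a single large droplet and release fatty acids when needed, whereas brown adipocytes burn fuel for heat, and prolonged β3-adrenergic stimulation is known to bring brown-like cells into white depots. Long non-coding RNAs are transcripts with little coding capacity, many of them restricted to 1 tissue or stage. The AK accessions are records of mouse cDNA clones. DV and AA accessions are expressed sequence tags, short reads from the end of a cDNA clone, so DV650143 and AA797690 mark a transcribed stretch rather than a defined gene. No function of the 5 is asserted here.

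Between 55.2% and 78.3% of probes on an array were well above background by the scanner software's mark, lowest on a brown fat array. The same mark fell on 10.9% to 36.4% of the 1200 spots of 20 negative control probes, so it is a lenient one. Replicate arrays correlated at r = 0.980 in brown fat, 0.983 in saline white fat and 0.939 in CL white fat across tested probes, and 35% of probes were at least 2-fold apart between the CL arrays. Each of the 2 tissues, and each of the 2 treatments, had its own place on the slide, so neither can be told apart from slide position. The culture arrays were scanned apart from the tissue arrays, so culture and scan cannot be told apart. Of the 11 marker lists, brown adipocytes had 1 of 9 symbols on a named probe (Gk, higher in brown fat), white adipocytes 0 of 8, and lymph node stroma and lymphocytes 2 of 9 (Ccl21b and Ccl21c). The white adipocyte identity of the tissue could therefore not be checked. In whole tissue, fewer cells of a type and less RNA per cell cannot be told apart.

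AK196148, a cDNA clone record, was the only one of the 5 that was well above background on all 10 arrays. Its processed signal, in scanner intensity units with the scanner software's own error, was 68.5 ± 9.0 and 154 ± 15.8 on the brown fat arrays. On the saline white fat arrays it was 3605 ± 360 and 3418 ± 342. On the CL arrays it was 4194 ± 420 and 1411 ± 141. The white fat signals were 15.7 to 46.6 times the 95th percentile of the negative control spots on the same array, and the lower brown fat signal did not reach that level. On the scaled log2 measure used from here on (log2 signal from which each array's 75th percentile was taken off), AK196148 stood at -1.64 and -0.82 in brown fat, 3.54 and 3.32 in saline white fat, and 2.84 and 2.58 in CL white fat. No 2 tissue groups overlapped, and the order ran from saline white fat through CL white fat to brown fat. Saline white fat above brown fat is how the probe was chosen. Both CL arrays lay below both saline white fat arrays for 15.4% of all tested probes, and above both brown fat arrays for 22.9%. All 4 white fat arrays lay above every culture array, which ran from 0.18 at day 0 to 2.39 at day 5.

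AK015763, the second cDNA clone record, missed the background mark on both arrays of brown fat, with signals of 6.89 ± 6.91 and 20.1 ± 4.65. It gave 192 ± 19.6 and 216 ± 22 in saline white fat, and 295 ± 31.4 and 244 ± 25 after CL. Scaled values were -0.68 and -0.67 after saline and -0.99 and 0.05 after CL, so the CL arrays lay on both sides of the saline pair. The white fat signals were 1.88 to 2.72 times the 95th percentile of the negative control spots, a narrow margin beside that of AK196148.

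DV650143, an expressed sequence tag, was likewise not well above background in brown fat, at 8.32 ± 7.13 and 19.5 ± 4.93. Saline white fat gave 412 ± 41.3 and 314 ± 31.6. After CL the signals were 974 ± 98.0 and 38.6 ± 6.24, the highest of its 10 arrays and the lowest of its 4 white fat arrays. The scaled values of the CL pair were 0.73 and -2.61, with both saline arrays (0.41 and -0.13) between them.

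AK145170, the third cDNA clone record, passed the background mark on 1 brown fat array, at 28.0 ± 5.04, and missed it on the other, at 6.86 ± 6.89. It gave 195 ± 19.8 and 275 ± 27.8 in saline white fat, then 165 ± 19.5 and 120 ± 13.2 after CL. Scaled values were -4.96 and -3.28 in brown fat, -0.67 and -0.31 after saline and -1.83 and -0.97 after CL. The 3 groups did not overlap, in the same order as for AK196148.

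AA797690, the other sequence tag, was also well above background on 1 brown fat array (26.3 ± 4.47) and not on the other (7.89 ± 5.70). It gave 176 ± 17.9 and 214 ± 21.8 after saline and 109 ± 14.5 and 84.8 ± 9.87 after CL. Scaled values were -4.76 and -3.37, then -0.81 and -0.68, then -2.42 and -1.47, again without overlap. After CL neither signal passed the 95th percentile of the negative control spots, with 94.7% of those spots below it on each array.

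**Figure D1:**
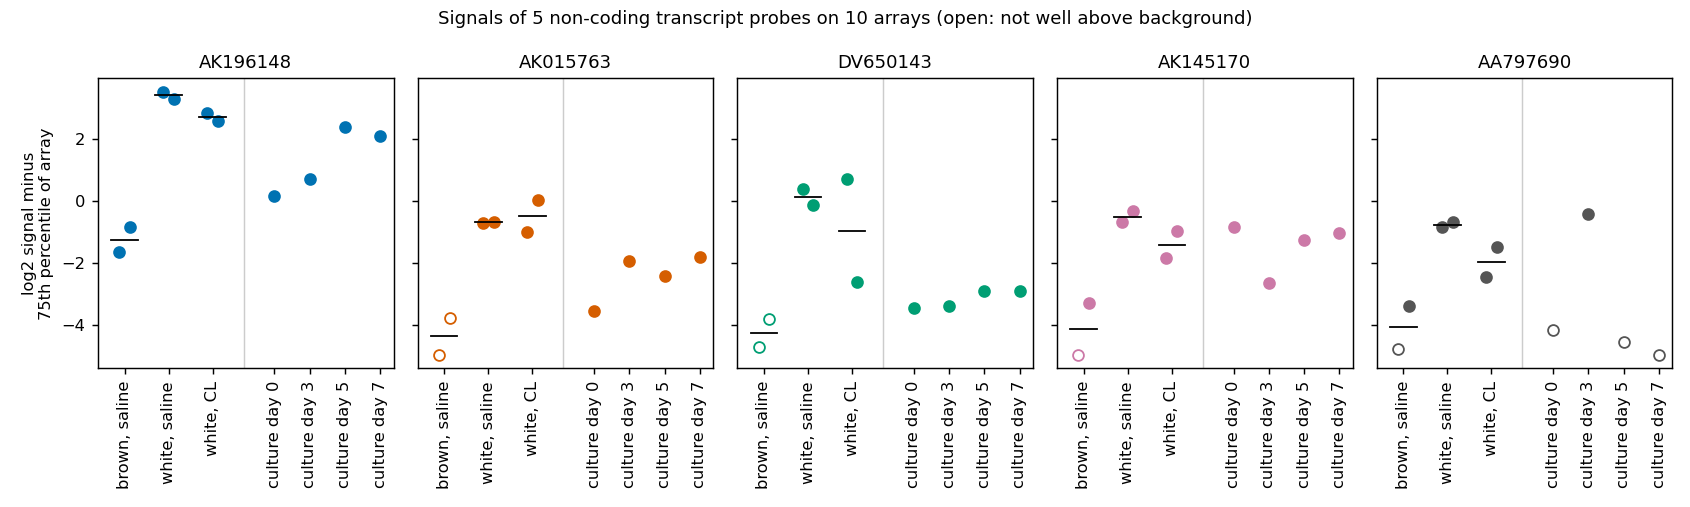
Scaled signals of the 5 probes (log2 signal less each array's 75th percentile, vertical axis) in saline brown fat, saline white fat, CL white fat and cultured brown adipocytes at days 0, 3, 5 and 7. Each point is 1 array, bars are means of 2 arrays, and open points were not well above background; in all 5 panels both saline white fat arrays lie above both brown fat arrays, and the CL arrays of DV650143 stand 3.34 apart.

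As a description of the contrast that chose them, mean log2 differences of brown from saline white fat were -4.66 for AK196148, -4.38 for DV650143, -3.68 for AK015763, -3.63 for AK145170 and -3.32 for AA797690 (n = 2 each). DV650143 and AK015763 have only a bound in brown fat, which depends on the limit used. With the dimmest signal that passed the background mark on each array as the limit, or the probe's own signal where that was higher, DV650143 was at least 11.5-fold and AK015763 at least 6.44-fold higher on the scaled signal of saline white fat. With the 95th percentile of the negative control spots as the limit, the bounds were only 2.33-fold for DV650143 and 1.32-fold for AK015763. AK145170 and AA797690 missed the background mark on brown fat replicate 1, and both brown fat signals of each lay below that percentile. The sizes of their differences from brown fat are therefore uncertain too, and no bound was worked out for them. With normexp, another background correction, which leaves a larger offset under dim spots, the differences were -3.98 for AK196148 and between -1.98 and -1.25 for the other 4. The brown fat replicates of the 5 lay 0.82 to 1.68 apart on the log2 scale, further than 86.9% to 97.6% of tested probes, with replicate 1 the lower each time.

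The next question was how 7 days of CL altered these transcripts in white fat. None of the 5 was called by limma with Benjamini-Hochberg adjustment, nor was any of the 43542 probes tested (0%); 5.46% of all probes and 0 of the 5 had an unadjusted p under 0.05. AA797690 differed by log2 -1.20 (SE 0.55, 95% interval -2.49 to 0.08, limma adjusted p = 0.922). DV650143 differed by -1.08 (interval -3.34 to 1.18), AK145170 by -0.91 (-2.31 to 0.49) and AK196148 by -0.72 (-1.67 to 0.23). AK015763 differed by 0.21 (-1.03 to 1.44). Each of the 5 intervals includes both no difference and a level 2-fold lower after CL, so 2 arrays a group could not tell these apart.

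For AK196148, AK145170 and AA797690 both CL arrays lay below both saline arrays. That was so for 15.4% of all tested probes and for 49.2% of the 2118 probes called lower in brown fat, the set from which the 5 come. The median CL difference was -0.91 over the 5, -0.52 over those 2118 probes and -0.08 over all tested probes, and values below 0 made up 80.1% of the 2118 and 4 of the 5. The saline white fat arrays enter both contrasts and the probes were chosen as high on them, which favours a lower value after CL, so the 4 of 5 is not read as a response.

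**Figure D2:**
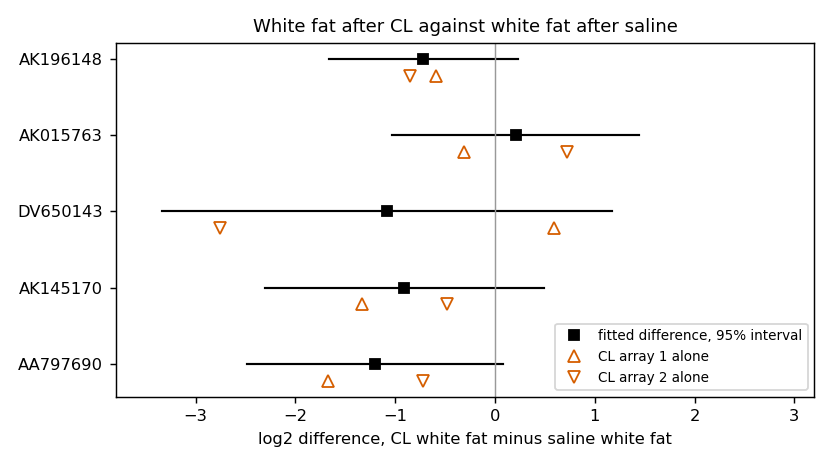
Log2 difference of CL white fat from saline white fat (horizontal axis) for the 5 probes, as the fitted value with its 95% interval (squares and lines) and for each CL array alone against the mean of the saline pair (triangles). All 5 intervals include 0, and the triangles of DV650143 (0.59 and -2.75) and AK015763 (-0.31 and 0.73) fall on both sides of it.

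DV650143 had the widest spread of the 5 after CL. CL replicate 1 was 0.59 above the saline mean on the log2 scale and replicate 2 was 2.75 below it, 10.2-fold apart. Of all tested probes 1.08% had CL arrays at least as far apart, and 0.971% had them so with replicate 1 the higher. The gap was 4.66 before scaling, 3.44 under quantile normalization, 3.64 with median scaling and 2.02 with normexp, so its direction was the same on each scale. Array-wide values moved too: the 75th percentile of the signal was 585 on CL replicate 1 and 235 on replicate 2. Over all tested probes the scaled difference between them had a median of -0.52, opposite in sign to that of DV650143. Before scaling the median was 0.79, of the same sign as that of DV650143. The part of these array-wide values in the gap was not tested. Without CL replicate 2 the difference of DV650143 from saline turned to 0.59 (SE 0.47, limma adjusted p = 0.448), and without replicate 1 it was -2.75 (SE 0.47, adjusted p = 0.162), where the lone array is assumed to vary like the other groups. AK015763 also turned, from 0.21 to -0.31 without CL replicate 2.

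**Figure D3:**
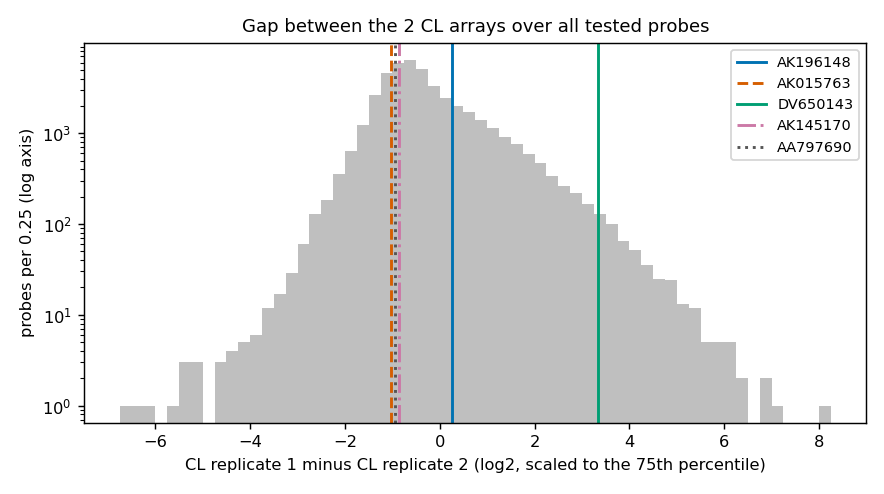
Scaled log2 signal of CL replicate 1 minus CL replicate 2 for the 43542 tested probes (grey bars, probes per bin on a log axis), with the 5 probes as vertical lines. DV650143 lies at 3.34, in the right tail, AK196148 at 0.26, and the other 3 between -1.04 and -0.86.

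The probes most like DV650143 across the 10 arrays, among 856 named probes, were AK182289 (Pearson r = 0.927), AK135967 (0.876) and BB710262 (0.875). All 3 were higher on CL replicate 1 than on replicate 2, at 3.13 against 2.02 for AK182289, 1.40 against -1.68 for AK135967 and 1.51 against 0.34 for BB710262. The 3 were picked by their r over arrays that include the CL pair. That choice favours the same order of the CL arrays, so the order is no separate support for the gap. These correlations are descriptions over arrays that share tissue and scan, and no p is given for them.

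Against brown fat, the question was whether the 5 stayed apart from it after CL. AK196148 was higher in CL white fat by log2 3.94 (SE 0.41, limma adjusted p = 0.00631) and AK015763 by 3.88 (SE 0.53, adjusted p = 0.0159), and the bound for AK015763 was 7.43-fold with the background mark as the limit and 1.52-fold with the 95th percentile of the negative control spots. These were 2 calls of 5, where 1.98% of all tested probes were called higher in CL white fat. AK145170 was higher by 2.72 (SE 0.60, adjusted p = 0.0570), AA797690 by 2.12 (SE 0.55, adjusted p = 0.0817) and DV650143 by 3.30 (SE 0.97, adjusted p = 0.108), none of them called. AK145170 and AA797690 missed the background mark on brown fat replicate 1, and DV650143 on both brown fat arrays, so these sizes are uncertain. All 5 had both CL arrays above both brown fat arrays, as had 22.9% of all tested probes and 93.2% of the probes called lower in brown fat. With normexp the differences were smaller, 3.30 for AK196148, 1.49 for AK015763, 1.48 for DV650143, 0.82 for AK145170 and 0.51 for AA797690. This comparison uses the brown fat arrays that chose the 5 as low, so it is no separate support. AK015763 lost its call without brown fat replicate 1 (adjusted p = 0.0904) and with array weights (0.0718). DV650143 passed the threshold without CL replicate 2 (log2 4.97, limma adjusted p = 0.00561), where 26.5% of all tested probes were called, and was at 1.63 without replicate 1 (0.0932).

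The Ccl21 chemokine probes ran closely alongside AA797690 and AK145170 across the tissue arrays. Ccl21b and Ccl21c are near-identical chemokine genes whose products draw lymphocytes and dendritic cells. They were the 2 measured of the 9 symbols on the list of lymph node stroma and lymphocytes. Ccl21a, also on that list, had no probe with its symbol. Probe sequences were not used, so whether the 2 probes also read Ccl21a is not known. The 2 probes are no specific measure of lymph node content. Ccl21b stood at 4.26 and 5.58 in brown fat, 7.72 and 7.49 in saline white fat, and 6.16 and 7.10 after CL. Ccl21c stood at 4.62 and 5.84, 7.82 and 7.48, and 6.16 and 7.29 in the same order. Among the 856 named probes Ccl21b was the one most like AA797690 (r = 0.995) and AK145170 (r = 0.984) over the 6 tissue arrays, while r was 0.921 for AK196148, 0.912 for AK015763 and 0.742 for DV650143. All 3 of AA797690, AK145170 and Ccl21b were lowest on brown fat replicate 1 and, within white fat, on CL replicate 1. The order of the CL arrays is not particular to them: after scaling, 70.5% of all tested probes were lower on CL replicate 1, and before scaling AA797690, AK145170 and Ccl21b were higher on it, by log2 0.37, 0.46 and 0.37. Over all 10 arrays r with Ccl21b was 0.510 for AA797690 and 0.0418 for AK145170. Brown and white fat differ in all of these probes, which raises every such r, and the part of lymph node content in the members' values was not tested. Gk, the measured brown adipocyte symbol, ran the other way over the 6 tissue arrays, at r = -0.917 with AA797690 and -0.919 with AK145170. Its r was -0.98 with AK196148, -0.91 with AK015763 and -0.87 with DV650143. In culture the Ccl21b probe lay between -0.85 and -0.50, AK145170 between -2.62 and -0.81, and AA797690 between -4.96 and -0.41.

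**Figure D4:**
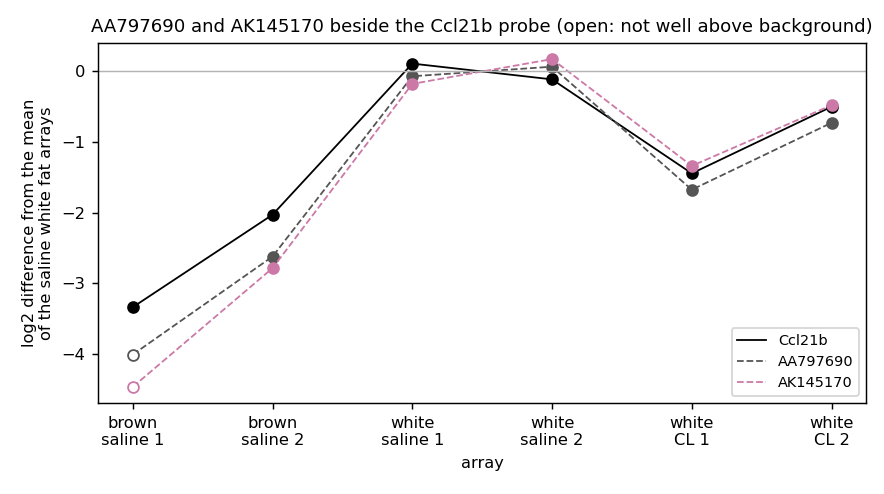
AA797690, AK145170 and the Ccl21b probe on the 6 tissue arrays (horizontal axis), each as the log2 difference from its own mean over the saline white fat arrays; open points were not well above background, and lines join the arrays of 1 probe to guide the eye. All 3 probes are lowest on brown fat replicate 1. They are also lower on CL replicate 1 than on CL replicate 2, and 70.5% of tested probes share that order of the CL arrays after scaling.

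In differentiating brown adipocytes the 5 took different courses, each read from 1 array per day with no replicate and no test. Signals below are unscaled, and every fold change between days is on the scaled measure, which takes off the brightness of the array. AK196148 gave signals of 378, 625, 2196 and 1525 at days 0, 3, 5 and 7. On the scaled measure it was 4.61-fold above day 0 at day 5 and 3.81-fold at day 7, where 10.4% and 9.57% of the 48630 probes measured in culture were at least 2-fold higher than at day 0. AK015763 gave signals of 28.8, 99.8, 78.8 and 101. On the scaled measure it was 3.07-fold, 2.18-fold and 3.32-fold above day 0, a rise of 2-fold or more on each later day that 5.35% of probes shared. Its day 0 signal lay above only 73.6% of the negative control spots, and with normexp its log2 differences were 0.66, 0.38 and 0.77. On day 3 alone, 10.7% of probes were at least 2-fold higher than at day 0 and 10.5% at least 2-fold lower.

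DV650143 stayed low throughout, with signals of 30.5, 36.8, 56.4 and 47.8, and within a 1.48-fold range on the scaled measure. All 4 signals lay below the 95th percentile of the negative control spots, although each carried the mark of well above background.

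AK145170 and AA797690 moved in opposite directions at day 3. AA797690 gave 284 ± 28.6 at day 3 and was not well above background at day 0 (18.97 ± 4.54), day 5 (18.1 ± 5.54) or day 7 (11.3 ± 4.34). On the scaled measure day 3 was 12.2-fold, 12.1-fold and 12.7-fold above the dimmest signal that passed the background mark on those days. It was only 1.70-fold, 4.67-fold and 3.76-fold above the 95th percentile of their negative control spots. The unscaled day 3 signal was 3.42 times that percentile on its own array. Being at least 2-fold above each of the other days at day 3 was shared by 1.34% of probes. AK145170 gave signals of 190, 61.1, 176 and 175, lowest at day 3. On the scaled measure day 3 was 3.51-fold below day 0. Being at least 2-fold below each of the other days at day 3 was shared by 0.742% of probes. The unscaled day 3 signal of AK145170 was 0.736 times the 95th percentile of the negative control spots on its array. With normexp the day 3 log2 difference from day 0 was 1.82 in place of 3.73 for AA797690. For AK145170 it was -1.17 in place of -1.81. With normexp AK145170 stood at -1.80 on day 3 and -0.98 on day 5, less than 2-fold apart. The scanner error is that of 1 spot and says nothing of the spread between cultures.

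**Figure D5:**
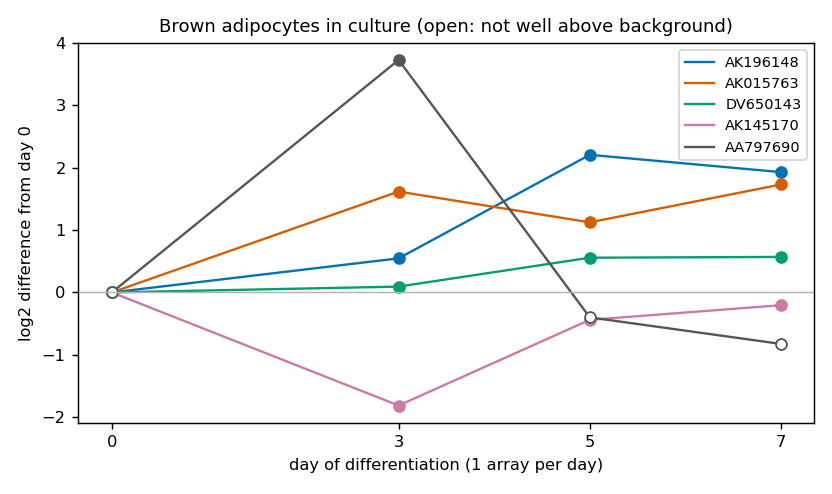
Log2 difference from day 0 (vertical axis) of the 5 probes in cultured brown adipocytes by day of differentiation, 1 array per day; open points were not well above background. AA797690 is 3.73 above day 0 at day 3 alone, AK145170 is 1.81 below it there, and AK196148 and AK015763 end 1.93 and 1.73 above it.

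Set beside the tissues, AK196148, AK015763, DV650143 and AK145170 had all 4 culture arrays above both brown fat arrays and below both saline white fat arrays. That count of 4 was the same with median scaling and fell to 3 under quantile normalization, without AK015763, and to 2 with normexp, without AK015763 and DV650143. On the main scale the pattern held for 1.27% of all tested probes and for 11.3% of the 2118 called lower in brown fat, whose median brown-white difference was -2.22 against -3.68 for the 5, which leaves a narrower window. For DV650143 all 4 culture and both brown fat signals lay below the 95th percentile of their arrays' negative control spots. So did AK015763 at day 0, AK145170 at day 3 and both brown fat signals of each. Their place above brown fat there is an order among dim signals, on arrays scanned apart. For AK145170 the margin to saline white fat was small, with day 0 at -0.81 and the lower saline array at -0.67. AK196148 at day 7 was 3.34 above the brown fat mean and 1.32 below the saline white fat mean on the log2 scale. AA797690 differed, at -4.14, -4.54 and -4.96 on days 0, 5 and 7 and within the spread of brown fat or below it, and at -0.41 on day 3, above both saline white fat arrays.

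Among the same 856 named probes over the 10 arrays, AA014456 was most like both AK196148 (r = 0.910) and AK015763 (r = 0.921), over a narrow range of its own from 5.92 to 6.94. AI449237 (0.888) and CF742613 (0.871) followed for AK196148, and CJ062880 (0.898) and FJ387503 (0.889) for AK015763. CF742613 (0.874), DV047736 (0.864) and the probe of Hprt, a purine salvage gene often used as a reference (0.863), were most like AK145170. BY031985 (0.903), AK018881 (0.865) and AW539922 (0.767) were most like AA797690. BY031985, AK018881 and AW539922 were also highest in culture at day 3. BY031985 stood there at 2.76 against 0.52 to 1.25 on the other days. AK018881 stood at -1.40 against -4.44 to -3.34, and AW539922 at -3.94 against -5.84 to -4.05. They were picked by r over arrays that include day 3, which favours such a peak, so it is no separate support. Among the 5 themselves r over the 10 arrays ran from 0.320 (AK145170 with AA797690) to 0.916 (AK196148 with AK015763).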

How the data were processed

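The deposited scanner files hold 1-colour (Cy3) spot intensity values, background-subtracted by Agilent Feature Extraction 11.0.1.1 per the file headers (9.1 per the submitters' processing notes), with a flag of 0 or 1 for spots well above background (other). A deposited table of log2 values for 18997 probes, of unstated normalization and centring, lists only AK196148; its columns followed the log2 signals of their own arrays (r = 0.999 to 1.00), with medians of 7.15 to 7.45. Control, negative control and outlier spots were left out (0 outlier flags on the 5 probes; 0 saturated). Values are log2 processed signal minus the array's 75th percentile. Probes well above background on both arrays of a tissue group (43542) were fitted with limma 3.58.1 in R 4.3.3 on all 6 tissue arrays (3 residual and 4.46 prior degrees of freedom), called at Benjamini-Hochberg adjusted p under 0.05, two-sided, and tested on simulated data. All 5 members passed this filter, through the group where they are high. P-values measure the spread between these samples, which may be technical, and the number of arrays limits precision.

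The members and lists were chosen with earlier results of these data known. Named beside each member are the 3 most similar accession- or symbol-named probes by Pearson r over 10 arrays, among those well above background on at least 5, and every listed marker that the files name. Symbols came from RefSeq transcripts (GRCm38.p6, names only) for 116 of 123 RefSeq probes and 0 members. Probe sequences and positions were not used here. Of the marker lists, only the reference list (7 of 7), brown adipocyte (1 of 9) and lymph node (2 of 9) had measured symbols. No reference gene was called in any of the 3 contrasts. Alternatives were background correction, scaling, filter, the value table, array weights, a replicate block and leaving out each array. The values of each CL array, the negative control spots, the chemokine probes, the day 3 shares, the bounds against negative control spots and the culture count under other scalings were added after seeing the data.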

Additional observations from a re-analysis of the deposited data

How the results depend on the processing

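With 2 arrays a group and 1 per culture day, depth is not known and dim spots limit the fold changes: normexp moved the brown-white differences of all 5 probes (to -3.98 for AK196148, -1.98 for DV650143, -1.51 for AK145170, -1.41 for AK015763 and -1.25 for AA797690) and the culture differences of AK015763 and AA797690. No alternative called any of the 5 between CL and saline white fat. Probes called there numbered 32 with normexp, 2 among probes well above background on all 6 arrays, 1 with the replicate block, and 0 to 110 when 1 array was left out (110 without saline replicate 2). When 1 array was left out, AK015763 ran from -0.31 to 0.73 and DV650143 from -2.75 to 0.59, both turning sign without CL replicate 2. Between CL white fat and brown fat, members called numbered 1 with array weights, 4 with the replicate block (AK145170 and AA797690 added, limma adjusted p = 0.0210 and 0.0398) and 1 to 3 when 1 array was left out. Probes called there numbered 544 with no filter, 255 with array weights, 995 with only the 2 groups compared, and 203 to 11522 when 1 array was left out. Between brown and saline white fat they numbered 1385 with no filter, 16418 with array weights, 14226 with only the 2 groups, and 321 to 14226 when 1 array was left out. Arrays of the same replicate number deviated together at r = 0.504 between the white fat groups and at -0.02 and -0.08 with brown fat. The labels do not say what arrays of 1 replicate number share, so the replicate block stands only as an alternative. The trend on the day gave AA797690 a 7-day change of -1.56 in place of -0.83 (limma adjusted p = 0.942). Over the 6 tissue arrays alone the nearest named probe was another one for each of the 5. The cause of these changes was not tested.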
